A study of Homo sapiens with 9 samples.

Results

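The comparison was of total RNA abundance in PC9 cells transfected with siALKBH5#3, a siRNA against the m6A demethylase ALKBH5, and with siNC, a control siRNA. It used 6 of the 9 arrays of the series, 3 for siALKBH5#3 and 3 for siNC, and the other 3 arrays were of siALKBH5#1. PC9 is an established human lung adenocarcinoma cell line, both siRNAs were given at 15 nM, and RNA was taken 96 h after transfection, with 1 array per replicate. RNAs entered where their signal was well above background in Cy3 on all 3 arrays of either group, which held for 45840 of the 60541 RNAs on the array (75.7%). The question was which RNAs became more or less abundant with the siRNA, apart from any shift in their methylation.

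N6-methyladenosine (m6A) is a methyl mark on RNA that is written by a methyltransferase complex, removed by demethylases such as ALKBH5, and read by proteins that bind marked RNAs. Depending on the reader, a marked RNA can be degraded sooner or be kept for longer, so that the amount of an RNA can follow from its mark. On these arrays an antibody against m6A separated each RNA sample into a bound fraction (IP, labelled with Cy5) and an unbound fraction (Sup, labelled with Cy3), and the sum of both signals stands for the total amount of an RNA whatever its mark.

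Abundance was the log2 of IP plus Sup, with each channel of an array divided by the geometric mean signal of 13 spike-in probes, which report RNA added to each sample. It is called spike-in scaled below this point, and a value from which the median of all tested RNAs of the same array was subtracted is called relative to the median RNA. Both are on the log2 scale, so that a difference of 1 is a doubling. The cells were measured in bulk, and fewer cells holding an RNA and less of it per cell cannot be told apart. No probe could be paired with ALKBH5, with another m6A enzyme or reader, or with the listed epithelial markers, so that neither the knockdown nor the cell type could be checked on these arrays.

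On the siALKBH5#3 arrays, 80.7%, 76.6% and 74.1% of RNA spots were well above background in Cy3, and on the siNC arrays 81.6%, 76.8% and 78.1% were. In Cy5 the shares were 48.8%, 57.2% and 44.4% with siALKBH5#3 and 40.8%, 43.2% and 50.9% with siNC. The groups overlapped in both channels. Of the 45840 RNAs, 43131 were above background in Cy3 on all 6 arrays, 758 were so on all siALKBH5#3 arrays but not on all siNC arrays, and 1951 the reverse. In Cy3, 71 RNAs were above background on all 3 siALKBH5#3 arrays and on no siNC array. Another 154 were so on all 3 siNC arrays and on no siALKBH5#3 array. Cy3 reports the unbound fraction alone, so that these RNAs need not be absent from the other group. Since an RNA that entered through 1 group had to differ between the groups, these counts describe the filter and were not tested. With at least 2 values in each group, 45616 RNAs were tested, and 1488 of these lacked a value on some array after outlier spots were left out.

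Across 44128 RNAs, which are not independent replicates, Pearson correlations of log2 total lay between 0.982 and 0.991 for pairs of siALKBH5#3 arrays and between 0.975 and 0.988 for pairs of siNC arrays. Pairs with 1 array of each group lay between 0.971 and 0.983. The pairs between groups thus reached lower than the pairs within either group, while their ranges overlapped.

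The median RNA of each array is the first quantity on which the scaling bears. The median spike-in scaled log2 total was -3.53, -3.43 and -3.10 on the siALKBH5#3 arrays and -2.94, -3.65 and -4.36 on the siNC arrays. The siNC arrays held both the highest and the lowest median, and the siALKBH5#3 arrays lay between them. The group means were -3.36 ± 0.23 with siALKBH5#3 and -3.65 ± 0.71 with siNC (SD, n = 3 each), a difference of 0.29 that was smaller than the spread between siNC arrays. A two-sided exact permutation test gave p = 0.6, where 3 against 3 arrays cannot go below 0.1. Without siNC replicate 3 the difference was -0.076, without siNC replicate 1 it was 0.63, and without any scaling it was 0.086.

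The 13 spike-in probes, of 102 on the array, did not change by the same amount from array to array. Most were brightest in Cy3 on siNC replicate 3. Over the 6 arrays the Cy3 signal of a spike-in probe ranged over 0.43 log2 units for the steadiest probe, over 1.33 for the median probe and over 2.30 for the most variable one, with 3 probes under 1 and 3 over 2. In Cy5 the ranges were from 1.35 to 4.22. The mean Cy3 signal was lower with siALKBH5#3 for 10 of the 13 probes and higher for 3, by differences between -0.83 and 0.15. A change of an RNA in the spike-in scaled values therefore carries the spread of these probes. Values relative to the median RNA were used as well, since centring takes out a shift shared by all RNAs of an array. The weight of IP against Sup in each total still rests on the spike-ins on that scale.

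**Figure D1:**
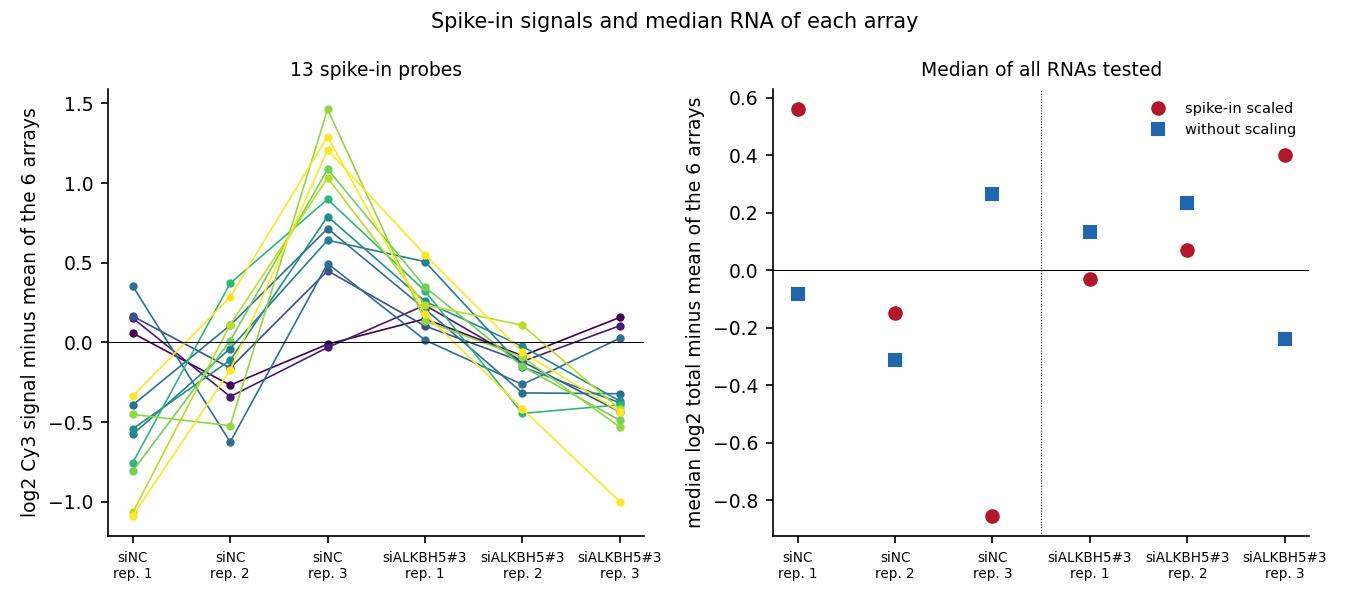
Left, log2 Cy3 signal of each of the 13 spike-in probes (lines) minus its mean over the 6 arrays, by array. Right, the median log2 total of all tested RNAs per array, minus its mean over the arrays, with the spike-in scaling (circles) and without it (squares). siNC replicate 3 had the brightest spike-ins for most probes and the lowest spike-in scaled median (-4.36), while its unscaled median lay above the mean.

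The choice of scale also set the spread between replicates. The median SD of an RNA over replicates was 0.294 with siALKBH5#3 and 0.681 with siNC for spike-in scaled values, and 0.249 and 0.295 for values relative to the median RNA. Of all tested RNAs, 74.6% were higher with siALKBH5#3 on the spike-in scale and 44.0% relative to the median RNA. Directions below are given relative to the median RNA, with the spike-in scaled change of most named genes beside them.

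At a limma adjusted P under 0.05, 27 RNAs rose (0.0592% of those tested) and 4 fell (0.00877%) with siALKBH5#3 on the spike-in scale. When each array was centred on its median RNA, 101 rose (0.221%) and 42 fell (0.0921%). These counts include RNAs that entered through 1 group alone. Over the RNAs above background in Cy3 on all 6 arrays, 42907 in number, limma called 11 higher and 3 lower on the spike-in scale and 74 higher and 33 lower relative to the median RNA. Of the 31 RNAs called on the spike-in scale and the 143 called relative to the median RNA, 26 were called on both, 24 of them higher and 2 lower. These p-values measure the spread between the arrays compared, not between other cultures or cell lines. At the threshold of the study's methods, a fold change over 1.5 with an unadjusted P under 0.01 in limma, 682 RNAs were higher (1.5%) and 70 lower (0.153%) on the spike-in scale, and 1329 were higher (2.91%) and 1024 lower (2.24%) relative to the median RNA. The share of higher RNAs among those past the threshold of the methods was 90.7% on the spike-in scale and 56.5% after centring on the median RNA.

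Leaving out single arrays moved the counts, most of all siNC arrays on the spike-in scale. Spike-in scaled, 2102 RNAs were called higher without siNC replicate 1, 172 without siNC replicate 3 and 0 in limma without siNC replicate 2, where 1209 RNAs had an unadjusted P under 0.05. Without siALKBH5#3 replicate 1, 2 and 3 the higher calls were 35, 22 and 23, within 1.5 times the full count. Called lower were 46 without siNC replicate 1, 84 without siNC replicate 3 and 0 without siNC replicate 2, and 10, 2 and 4 without siALKBH5#3 replicate 1, 2 and 3. In centred values limma called 0 RNAs when any siALKBH5#3 replicate or siNC replicate 2 was left out, where between 4455 and 5162 RNAs had an unadjusted P under 0.05. Without siNC replicate 1 it called 83 higher and 24 lower, and without siNC replicate 3 it called 9 higher and 2 lower.

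Relative to the median RNA, the change lay between -0.72 and 0.67 for the central 90% of RNAs, with a median size of 0.25, and its extremes were -4.43 and 3.63. Sizes are given for the called RNAs that were above background in Cy3 on all 6 arrays, 75 of the 101 that rose and 35 of the 42 that fell. The 75 rose by a median of 1.82, from 1.24 to 3.20, and 27 of them by more than 2. The 35 had a median change of -1.67, down to -2.87, with 9 beyond 2 log2 units. All 143 had groups that did not overlap, as did 4635 RNAs with siALKBH5#3 above siNC (10.2% of those tested) and 5047 with siALKBH5#3 below siNC (11.1%).

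When RNAs were ordered by mean signal and split into 5 groups of equal size, from dimmest to brightest, 29, 28, 34, 43 and 9 were called relative to the median RNA. The brightest group had 2 RNAs that rose and 7 that fell and a median change of -0.13, against values between -0.068 and -0.016 in the other groups. The plot of change against signal shows where the called RNAs lie on both axes.

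**Figure D2:**
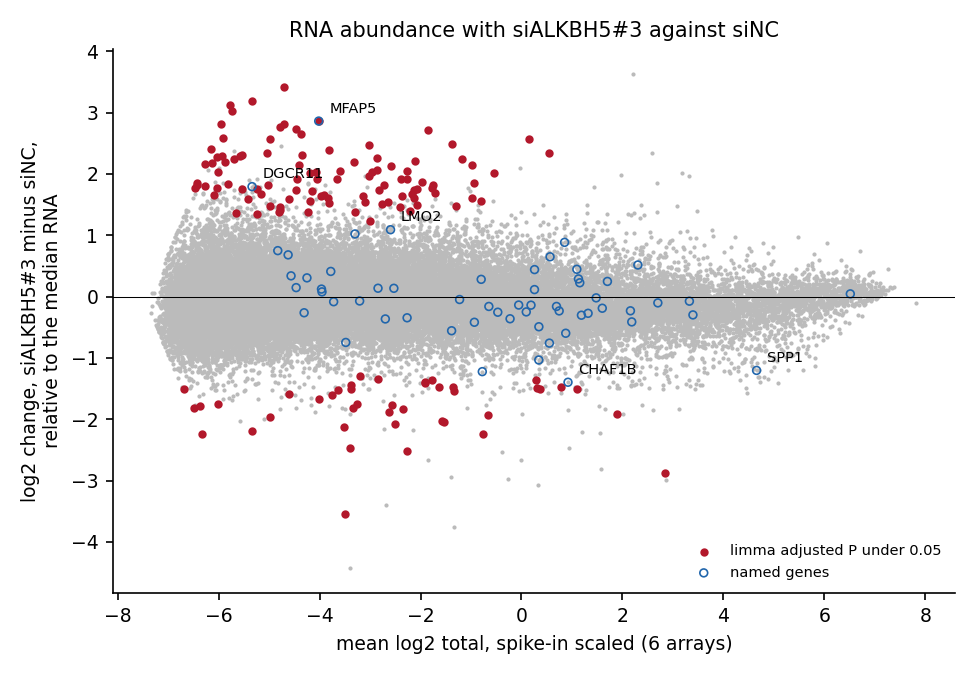
Change of each of the 45616 tested RNAs relative to the median RNA (log2, siALKBH5#3 minus siNC) against its mean spike-in scaled log2 total over the 6 arrays. Filled points are the 143 RNAs past a limma adjusted P of 0.05 and open circles the named genes, among which MFAP5 (2.86) is the one that passed. Most calls lie left of a mean log2 total of 0.

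The fractions were also tested alone. In Sup, over the 42907 RNAs above background in Cy3 on all 6 arrays, limma called 50 RNAs higher (0.117%) and 15 lower (0.035%), and relative to the channel median 167 higher (0.389%) and 46 lower (0.107%). In IP, over 22380 RNAs, limma called 0 in either direction (0%), with 1291 at an unadjusted P under 0.05. Relative to the channel median 1 was called higher and 1 lower (0.00894%), with 2424 at an unadjusted P under 0.05. Fewer RNAs were tested in IP and the spike-in probes varied more in Cy5, and the counts of the fractions were not compared by a test.

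Gene names could be given to 61 probes. Of these, 50 carry a RefSeq accession and are printed in 10 spots each, and 11 belong to genes that the study lists as methylated to a higher degree after knockdown. The latter were paired with probes through the methylation levels alone, each with 1 probe whose deposited levels gave the listed values, and no annotation was at hand to check the pairs. Of the 50, 47 were tested, while CFTR, ZAP70 and CD69 were above background on 0 of the 6 arrays and were not. Of the 58 named genes tested, 25 were higher and 33 lower relative to the median RNA, and 1 passed the test on either scale, MFAP5.

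MFAP5 encodes a glycoprotein of the microfibrils in the extracellular matrix. Relative to the median RNA, its log2 total was -1.98, -1.77 and -2.08 on the siNC arrays and 0.98, 0.82 and 0.96 on the siALKBH5#3 arrays. All 3 siALKBH5#3 values lay far above all 3 siNC values, and each group was tight, at 0.92 ± 0.088 and -1.95 ± 0.16 (SD, n = 3 each). The rise was 2.86 (SE 0.18, limma adjusted P 0.0199), a 7.28-fold change, and its unadjusted P was the smallest of the 45616 RNAs on that scale. Spike-in scaled values were -4.93, -5.42 and -6.43 with siNC and -2.55, -2.61 and -2.15 with siALKBH5#3, a rise of 3.16 (SE 0.45, adjusted P 0.0252). The siNC arrays differed more among themselves on the spike-in scale, and the groups still did not overlap.

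The rise of MFAP5 could be tested in the unbound fraction. Its Sup signal rose by 2.27 relative to the channel median (adjusted P 0.0199) and by 2.41 on the spike-in scale (adjusted P 0.0382). Its IP signal was above background on 0 of the 3 siNC arrays and on all 3 siALKBH5#3 arrays, so that the change in IP was not tested. The adjusted P for MFAP5 relative to the median RNA was 0.128, 0.146 and 0.0875 without siALKBH5#3 replicate 1, 2 and 3, and 0.145 without siNC replicate 2, with changes between 2.82 and 2.97 in these fits. It was 0.0365 without siNC replicate 1 and 0.0441 without siNC replicate 3. Its spike-in scaled adjusted P was 0.286 without siNC replicate 2 and at most 0.00808 without any other array. Among the background corrections tried, normexp was run with an offset of 50. This constant is added to every signal and makes log2 changes smaller, most of all for dim RNAs. The size of the change of MFAP5 depended on the background correction. For MFAP5 relative to the median RNA it was 1.46 without background subtraction (adjusted P 0.0644) and 0.73 with normexp (adjusted P 0.138), and spike-in scaled it was 1.69 and 0.92, with adjusted P of 1.00 and 0.982. Over all alternatives the adjusted P reached from 0.00321 to 0.385 relative to the median RNA and from 4.25e-11 to 1.00 on the spike-in scale. The study chose this gene from the methylation values of the same arrays and also lists it among genes higher on separate expression arrays, so that its place here is not an independent selection.

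**Figure D3:**
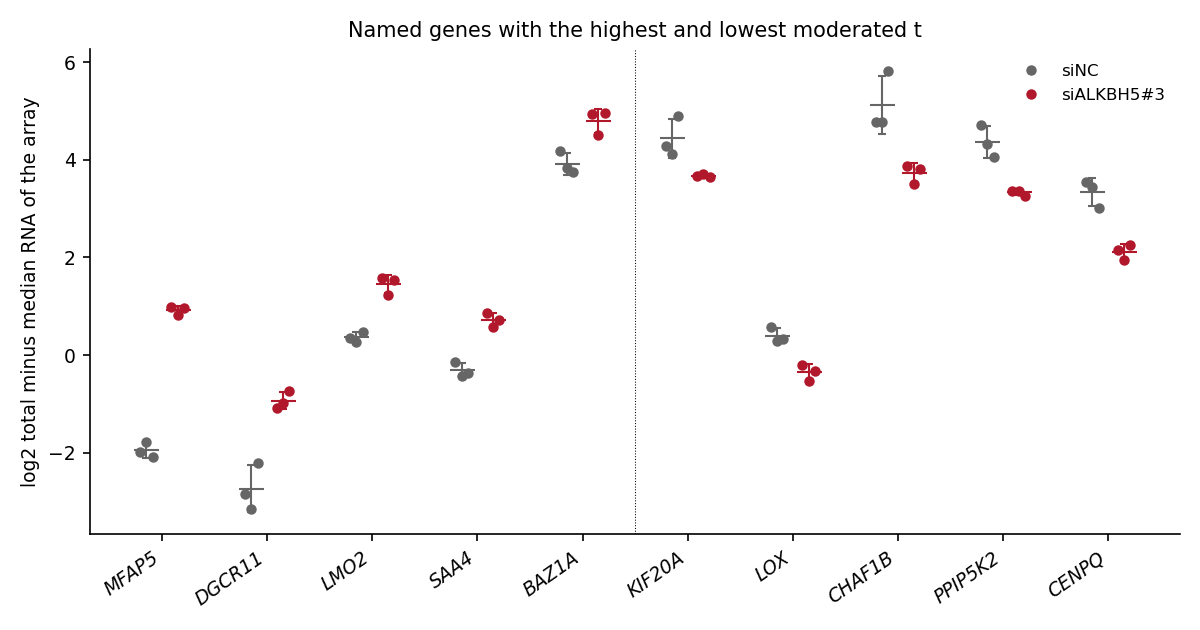
Log2 total relative to the median RNA on each of the 3 siNC (grey) and 3 siALKBH5#3 (red) arrays, for the named genes with the highest (left of the dotted line) and lowest (right) moderated t. Bars are the mean and SD. MFAP5 passed the test (2.86, adjusted P 0.0199), and the groups do not overlap for any of the genes shown, which were chosen for their t.

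The other 4 named genes with the highest moderated t did not pass the test. DGCR11, a noncoding RNA of the DiGeorge critical region, was at -2.84, -3.15 and -2.21 relative to the median RNA on the siNC arrays and at -1.08, -0.99 and -0.75 with siALKBH5#3. The groups did not overlap, and the siNC values were the more scattered. The difference was 1.79 (SE 0.27, adjusted P 0.0594), or 2.09 on the spike-in scale (adjusted P 0.109). For DGCR11 relative to the median RNA it was 0.46 without background subtraction and 0.17 with normexp. On the spike-in scale it was 0.70 and 0.37 for DGCR11. Its Sup signal differed by 0.63 relative to the channel median, and its IP signal was above background on 0 siNC arrays and on all 3 siALKBH5#3 arrays, so that its change in IP was not tested either.

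LMO2, a LIM-domain protein that bridges transcription factors, was at 0.34, 0.27 and 0.47 relative to the median RNA with siNC and at 1.58, 1.24 and 1.54 with siALKBH5#3. All siALKBH5#3 values were higher, by 1.09 on average (SE 0.19, adjusted P 0.0715), and the spike-in scaled difference was 1.39 (adjusted P 0.534). SAA4, a serum amyloid A protein made without an inflammatory stimulus, was at -0.13, -0.42 and -0.36 with siNC and at 0.86, 0.57 and 0.71 with siALKBH5#3. Its groups were likewise apart, by 1.02 (adjusted P 0.0822), and by 1.32 on the spike-in scale (adjusted P 0.63). Relative to the median RNA, LMO2 differed by 0.82 without background subtraction and by 0.52 with normexp, and SAA4 by 0.67 and 0.37. BAZ1A, a subunit of chromatin remodelling complexes, was at 4.17, 3.83 and 3.74 with siNC and at 4.93, 4.51 and 4.96 with siALKBH5#3, a difference of 0.88 (adjusted P 0.144). The groups of BAZ1A overlapped on the spike-in scale, with a difference of 1.18.

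None of the 5 named genes with the lowest moderated t passed the test. CENPQ, a protein of the inner kinetochore, was at 3.55, 3.45 and 3.02 relative to the median RNA with siNC and at 2.15, 1.94 and 2.25 with siALKBH5#3. The siALKBH5#3 values were all lower, by -1.22 (SE 0.21, adjusted P 0.0738), and on the spike-in scale the difference was -0.93 and the groups overlapped. CHAF1B, a subunit of the chromatin assembly factor that places histones behind the replication fork, was at 4.78, 4.78 and 5.81 with siNC and at 3.87, 3.50 and 3.82 with siALKBH5#3. It was the one of these 5 genes whose groups stayed apart on both scales, with differences of -1.40 (SE 0.31, adjusted P 0.12) and -1.10 (SE 0.41, adjusted P 0.676). Relative to the median RNA its highest array was siNC replicate 3.

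PPIP5K2, a kinase that makes inositol pyrophosphates, was at 4.70, 4.33 and 4.05 with siNC and at 3.36, 3.36 and 3.27 with siALKBH5#3, a difference of -1.03 (adjusted P 0.101). The siALKBH5#3 arrays hardly differed among themselves, with an SD of 0.054 against 0.33 for siNC. Its difference was -0.34 in Sup and -1.16 in IP, each relative to the channel median, and neither passed. KIF20A, a mitotic kinesin needed for cytokinesis, was at 4.28, 4.13 and 4.90 with siNC and at 3.66, 3.71 and 3.66 with siALKBH5#3, lower by a change of -0.76 (adjusted P 0.229). LOX, an enzyme that crosslinks collagen and elastin, was at 0.57, 0.29 and 0.33 with siNC and at -0.20, -0.54 and -0.32 with siALKBH5#3, a difference of -0.75 (adjusted P 0.154). For LOX relative to the median RNA it was -0.47 without background subtraction and -0.24 with normexp. For PPIP5K2, KIF20A and LOX the groups overlapped on the spike-in scale, with differences of -0.74, -0.46 and -0.45.

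The 47 tested genes with a RefSeq accession were few, but each rests on 10 spots, with a median SD of 0.116 between the spots of an array. Of these, 15 were higher and 32 lower relative to the median RNA, with a median change of -0.16 against -0.053 over all 45616 RNAs. Spike-in scaled, 31 were higher, with a median of 0.13 against 0.24 over all RNAs. Their direction as a set flipped with the scaling, as that of all RNAs did, with 24 higher without scaling and 17 higher after scaling to the 75th percentile. The groups did not overlap, relative to the median RNA, for 7 of the 47 with siALKBH5#3 above siNC and for 10 with siALKBH5#3 below, where the same held for 10.2% and 11.1% of all RNAs. At an unadjusted P under 0.05 there were 13 of the 47 relative to the median RNA, where 13.9% of all RNAs were, and 5 on the spike-in scale, where 5.57% were, and limma called 0 of them on either scale.

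Of these 47 genes, 30 were also grouped by what their products do, after their values had been seen, so that the groups are a description without a test. For DNA replication (PRIM1, WDHD1, DSCC1, DTL and CHAF1B), all 5 genes were lower relative to the median RNA, with a median of -0.36, all 5 were lower after scaling to the 75th percentile, 4 were lower without scaling, 3 on the spike-in scale and 2 where the median spike-in replaced the mean. For mitosis and the centromere (CENPE, CENPQ, KIF20A, CCNA2, SPDL1, ITGB3BP and PIMREG), 6 of 7 were lower relative to the median RNA, with a median of -0.42 and SPDL1 as the exception at 0.25. On the spike-in scale 4 of these 7 were lower, and with the median spike-in 3 were. CCNA2, the cyclin of S phase and G2, was at 4.19, 4.2 and 5.65 with siNC and at 4.18, 4.07 and 4.0 with siALKBH5#3. The siNC replicate 3 value alone set most of its difference of -0.60 (adjusted P 0.581), since every other value lay close to the rest. The spike-in scaled groups of CCNA2 overlapped, with a difference of -0.30.

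For DNA repair (BRCA1, ABRAXAS1, RAD54B, EXO1, WRN and SMC6), all 6 were lower relative to the median RNA, by changes between -0.34 and -0.020. As for all RNAs, the direction flipped on the spike-in scale, where 5 of the 6 were higher, without scaling, where 4 were, and with the median spike-in, where all 6 were. After scaling to the 75th percentile 2 were higher and 4 lower. For the extracellular matrix (LOX, LOXL2, COL13A1 and SPP1), all 4 were lower relative to the median RNA, with a median of -0.58. MFAP5, a matrix gene that rose by 2.86, is not in this group, which was drawn from the genes with a RefSeq accession. On the spike-in scale 3 of these 4 were lower, and 2 with the median spike-in. SPP1, which encodes osteopontin, was at 7.80, 8.69 and 9.79 relative to the median RNA with siNC and at 7.98, 7.62 and 7.08 with siALKBH5#3. Its groups overlapped on that scale through siNC replicate 1, with a difference of -1.20 (SE 0.50, adjusted P 0.346), and they did not overlap on the spike-in scale, with a difference of -0.91 (adjusted P 0.838).

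For chromatin and transcription (BAZ1A, SMARCAD1, ATAD2, ZZZ3, ZNF195, LMO2, TCF7 and POLR2A), 5 of 8 were higher on both scales and without scaling, with a median of 0.25 relative to the median RNA, and 7 were higher with the median spike-in. POLR2A, the largest subunit of RNA polymerase II, was lower by a change of -0.56 relative to the median RNA, with no overlap between the groups and an adjusted P of 0.36, and by -0.26 on the spike-in scale, where the groups overlapped. ZNF195, a zinc finger protein, was higher by 0.65 (adjusted P 0.202), and by 0.94 on the spike-in scale, where its groups overlapped. Limma called none of the 30 genes in these groups on either scale. At an unadjusted P under 0.05 relative to the median RNA were 9 of them, a larger share than the 13.9% of all RNAs. These genes average 10 spots each, and the shares were not compared by a test.

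**Figure D4:**
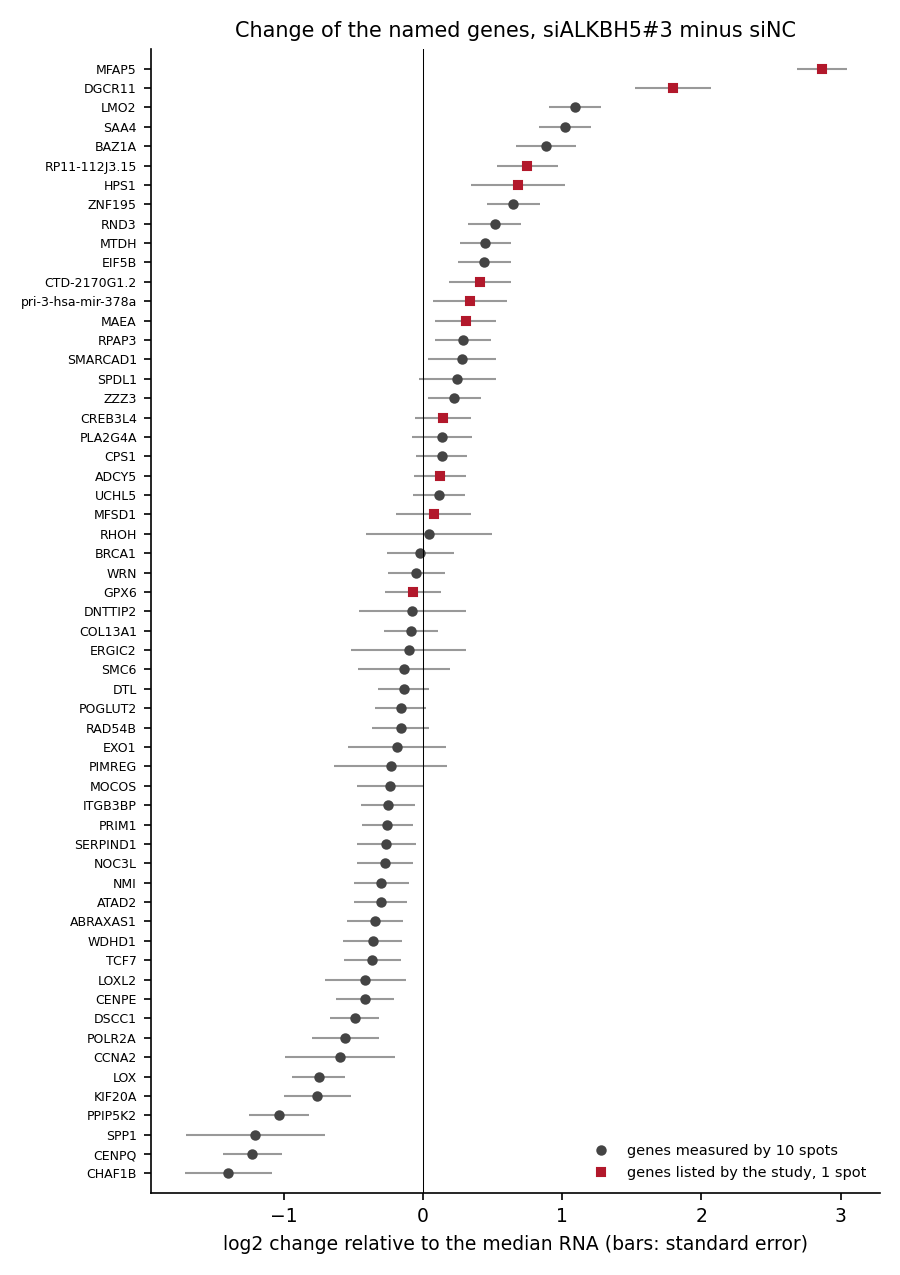
Change relative to the median RNA (log2, siALKBH5#3 minus siNC) of the 58 named genes tested, with the standard error of the limma fit. Circles are genes measured by 10 spots and squares are the 11 genes listed by the study, with 1 spot each. The changes run from -1.40 for CHAF1B to 2.86 for MFAP5, which alone passed the test. On the spike-in scale the median of these genes was 0.21 in place of -0.079.

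In 46 named genes both fractions were above background on all 6 arrays, which allows the change to be read in each fraction. The sign relative to the channel medians was the same in both for 39, with 15 higher and 24 lower. In 29 of the 46 the change was larger in IP than in Sup. No share over all RNAs was set beside these counts, which describe the 46 genes alone and were not tested. LMO2 differed by 1.13 in Sup and 1.22 in IP, CHAF1B by -1.06 and -1.58, and CENPQ by -0.98 and -1.30. None of these passed in either fraction.

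**Figure D5:**
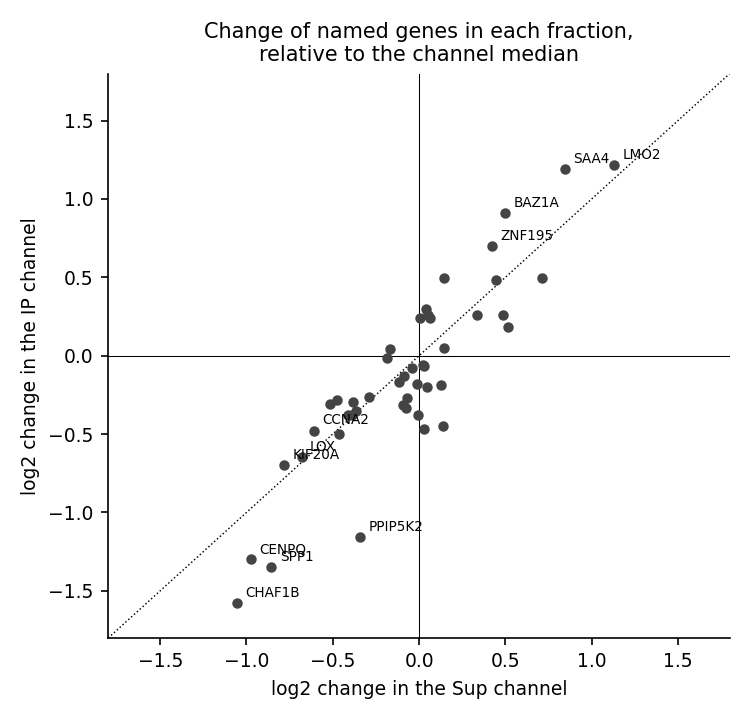
Change of each of 46 named genes in the IP channel against its change in the Sup channel (log2, siALKBH5#3 minus siNC, each relative to the median of its channel). The dotted line marks equal change. The signs were the same for 39 genes, and PPIP5K2 lies below the line, at -1.16 in IP and -0.34 in Sup.

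The 11 genes that the study lists were chosen on the methylation level of these arrays, IP over the sum of IP and Sup, so that neither their total nor their Sup signal is independent of the choice. Relative to the median RNA, 10 of the 11 were higher and 1, GPX6, was lower, with a median of 0.34. Their spike-in scaled median was 0.63. The siNC totals of all 11 include an IP signal that was mostly not measurable, above background on 1 siNC array for CREB3L4 and on 0 for the other 10. In Sup alone, 5 were higher relative to the channel median, among them RP11-112J3.15 at 0.34 and HPS1 at 0.052, and 6 were lower. Only MFAP5 passed in the total, and 3 had an unadjusted P under 0.05, MFAP5, DGCR11 and RP11-112J3.15.

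One of them is the primary transcript of a microRNA, pri-3-hsa-mir-378a. The mature products of this hairpin are shown because the probe reports only their precursor, and they were not measured. The sequences are those of RefSeq on GRCh38.p14, at chr5:149732829-149732850 and chr5:149732867-149732888 on the plus strand, with the seed, bases 2 to 8, in capitals.
hsa-miR-378a-5p: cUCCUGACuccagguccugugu
hsa-miR-378a-3p: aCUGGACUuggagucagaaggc
The primary transcript was at -0.74, -1.39 and -1.56 relative to the median RNA on the siNC arrays and at -1.13, -0.88 and -0.67 with siALKBH5#3. The groups overlapped, since siNC replicate 1 lay among the siALKBH5#3 values. The difference was 0.34 (SE 0.27, adjusted P 0.658), in Sup it was -0.18, and the spike-in scaled total differed by 0.63 (adjusted P 0.991).

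The siALKBH5#1 arrays share the siNC arrays with this comparison, so that values are set side by side and were not correlated or tested. MFAP5 was at 0.79, 0.65 and -0.34 relative to the median RNA with siALKBH5#1, above each siNC value, a difference of 2.31 from siNC. Its spike-in scaled values with siALKBH5#1 were -2.10, -2.17 and -5.84, the last of which lay inside the siNC range, with a difference of 2.23. DGCR11 was at -1.86, -1.67 and -3.11, a difference of 0.52, and siALKBH5#1 replicate 3 was within the siNC range. CENPQ differed from siNC by -0.55 with siALKBH5#1 relative to the median RNA, CHAF1B by 0.68, BAZ1A by -0.69 and SPP1 by 0.93, and on the spike-in scale these differences were -0.64, 0.59, -0.78 and 0.84. The siALKBH5#1 arrays varied more, with a SD of the array medians of 1.52 on the spike-in scale against 0.23 for siALKBH5#3.

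Most calls were for probes that no file pairs with a gene, and 2 in each direction are given. The probe ASHG19AP1B10019028311 was at -2.87, -3.65 and -2.23 relative to the median RNA with siNC and at 0.80, 0.35 and 0.35 with siALKBH5#3. It was above background in Cy3 on 2 of the 3 siNC arrays and entered through siALKBH5#3 alone, and its siNC replicate 2 value is the floor of that array. As a description, in background-subtracted signals the difference was therefore at least 3.42, and at least 3.71 on the spike-in scale. For ASHG19AP1B10019028311 relative to the median RNA it was 1.38 without background subtraction and 0.63 with normexp. ASHG19AP1B10356605911 was at -3.80, -3.62 and -2.87 with siNC and at -0.11, -0.41 and -0.17 with siALKBH5#3. Both were higher on all 3 siALKBH5#3 arrays than on any siNC array, and the latter, above background in Cy3 on all 6 arrays, rose by 3.20 (adjusted P 0.0202), and by 3.49 on the spike-in scale (adjusted P 0.0105). Its IP signal was above background on 0 siNC arrays and on all 3 siALKBH5#3 arrays, so that the size of the change rests in part on an IP signal that was not measured with siNC.

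The probe ASHG19AP1B10000765611 was at 2.17, 1.64 and 1.5 relative to the median RNA with siNC and at -2.50, -1.26 and -1.55 with siALKBH5#3. It was above background in Cy3 on all 3 siNC arrays and on 0 siALKBH5#3 arrays, so that it entered through siNC alone and had to differ. As a description, in background-subtracted signals it was 9.50-fold lower with siALKBH5#3 on the spike-in scale. Its siALKBH5#3 signals in Cy3 were not above background, so that the size of this fold is uncertain. This size depended on the background correction, with a log2 difference of -1.79 without background subtraction and of -0.87 with normexp for ASHG19AP1B10000765611. ASHG19AP1B11856252411 was at 3.40 and 5.09 on the siNC arrays that gave a value, with the spot of siNC replicate 3 left out as an outlier, and at 1.79, 0.22 and -0.56 with siALKBH5#3. Its change was -3.82 on the spike-in scale (adjusted P 0.029) and -3.76 relative to the median RNA, which did not pass (adjusted P 0.119). Without siNC replicate 2, ASHG19AP1B10356605911 had a spike-in scaled adjusted P of 0.165. Its spike-in scaled change was 1.23 without background subtraction and 0.58 with normexp, and neither passed (adjusted P 1.00 and 0.982). For ASHG19AP1B10356605911 relative to the median RNA the changes were 0.99 (adjusted P 0.0905) and 0.39 (adjusted P 0.254). The probe ASHG19AP1B11856252411 had too few values for a test without siNC replicate 1 or 2.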

How the data were processed

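The authors deposited Agilent Feature Extraction 11.0.1.1 output for each array, with intensity columns raw, background-subtracted and dye-normalized, and a table that gives the methylation level of each probe as a fraction, used here only to pair the genes the study lists with probes. Background-subtracted intensities were used. Outlier spots were left out, repeat spots were averaged as log2, signals at or below 0 counted as 0, and each array's totals were floored at the lowest total among RNA spots well above background in Cy3. R 4.3.3 was used with data.table (version 1.17.8) and limma (version 3.58.1), which was run on the 6 arrays with Benjamini-Hochberg adjustment and tested on simulated data. Figures used matplotlib 3.10.9. Depth is the signal over background, and precision is limited by how many arrays there are. Named are genes past the test, else the 5 with the highest and the 5 with the lowest moderated t, members of the gene lists, and any of the named probes where these are under 100. Of unnamed probes, 2 that rose and 2 that fell are given. Members and lists were chosen with earlier results of these data known, and the grouping by function and the other genes singled out were chosen after their values were seen. Symbols come from RefSeq accessions, all 50 of which matched. Alternatives were other scalings, background corrections, channels, filters, arrays and tests.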

Additional observations from a re-analysis of the deposited data

Results flagged for a closer look

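For 3 named genes every siALKBH5#3 array lay on one side of all siNC arrays and every siALKBH5#1 array on the other side, relative to the median RNA. The difference between the siRNAs was not tested, and both comparisons share the siNC arrays. LOX differed from siNC by -0.75 with siALKBH5#3 and by 2.15 with siALKBH5#1. SAA4 differed by 1.02 with siALKBH5#3 and by -1.32 with siALKBH5#1. LMO2 differed by 1.09 with siALKBH5#3 and by -0.49 with siALKBH5#1. With siALKBH5#1 the IP signal was above background on 0 of 3 arrays for SAA4 and on 1 for LMO2. For both genes it was so on all 3 siNC and all 3 siALKBH5#3 arrays. The siALKBH5#1 totals of SAA4 and LMO2 thus include an IP signal that was mostly not measured. The pattern did not hold on the spike-in scale, where at least 1 siALKBH5#1 array lay within the siNC range for each of the 3 genes, and the siALKBH5#3 arrays also overlapped siNC for LOX. None of the 3 genes passed the limma test for siALKBH5#3.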

How the results depend on the processing

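Counts below are RNAs called higher and lower on the spike-in scale, against 27 and 4, then relative to the median RNA, against 101 and 42, then at the threshold of the methods, against 682 and 70. Where no cause is stated, the cause was not tested.

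Without scaling the counts were 33 and 3, then 94 and 22, then 615 and 141. Centring on the median RNA gave 101 and 42, and 1329 and 1024 at the threshold of the methods. Scaling to the 75th percentile gave 166 and 58, the same relative to the median RNA, and 1420 and 747. The median of the spike-ins in place of the mean, chosen after seeing the data, gave 154 and 15, then 184 and 70, then 1065 and 41. Spike-ins chosen on the 6 arrays alone were the same 13 probes. The share of calls that were higher was 87.1% with the spike-ins, 91.7% without scaling, 70.6% with centring and 74.1% with the 75th percentile.

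Without background subtraction limma called 0 and 0 (559 RNAs at an unadjusted P under 0.05), then 9 and 4, then 101 and 25. With normexp, whose offset of 50 makes log2 changes smaller, it called 0 and 0 (294 at an unadjusted P under 0.05), then 0 and 0 (3461), then 43 and 21. Dye-normalized signals gave 0 and 0 (2067), then 170 and 90, then 498 and 60. Sup alone gave 62 and 16, then 228 and 55, then 734 and 96. IP alone gave 0 and 0 (673), then 1 and 3, then 101 and 20. Mean signals are not in the files, so that median signals served where raw ones were needed.

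RNAs above background in both channels, 22369 of them, gave 0 and 0 (1599), then 89 and 37, then 403 and 65. RNAs above background on all 6 arrays gave 11 and 3, then 74 and 33. No filter gave 63 and 10, then 84 and 32, then 800 and 71. Keeping outlier spots gave 28 and 5, then 100 and 38. Fitting all 9 arrays gave 0 and 0 (359), then 15 and 9, then 53 and 15. Array weights, estimated gene by gene because the default did not converge, gave 11079 and 2649, then 1125 and 661, then 8604 and 1921, and whether these counts rest on that way of estimating was not tested. The t-test named in the methods gave 0 and 0 on both scales (2401 and 6256 at an unadjusted P under 0.05, against 2543 and 6363 in limma), then 394 and 67.

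With a replicate block the counts were 63 and 13, then 0 and 0 in limma (4505 at an unadjusted P under 0.05), then 451 and 57. The replicate numbers did not pair the arrays, since the deviations of same-numbered arrays from their group means correlated at -0.355, 0.021 and -0.324, and 4 of the 6 pairings of unlike numbers exceeded 0.1.

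Leaving out each array in turn gave from 0 to 2102 higher and from 0 to 84 lower on the spike-in scale. Relative to the median RNA it gave from 0 to 83 higher and from 0 to 24 lower, and at the threshold of the methods from 247 to 4840 higher and from 35 to 588 lower. The difference between the group means of the array medians, 0.29, ranged from -0.076 without siNC replicate 3 to 0.63 without siNC replicate 1, with exact permutation p between 0.1 and 0.9 over the alternatives. With median centring of each channel, also chosen after seeing the data, the counts in Sup went from 50 and 15 to 167 and 46, and in IP from 0 and 0 (1291 at an unadjusted P under 0.05) to 1 and 1.

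MFAP5 kept its direction in all 23 alternatives in which it was tested, and stayed past the threshold in 16 on the spike-in scale, with changes from 0.92 to 3.49 and adjusted P up to 1.00, and in 14 relative to the median RNA, with changes from 0.73 to 2.97 and adjusted P up to 0.385. The lowest changes were with normexp. DGCR11 passed in 5 and in 4 of 23.

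A slide block was not run, since all 6 arrays carry the same scan date and no slide identifier separates them. Only 58 named genes were tested, so most calls stay without a gene name. RNAs dimmer than background in Cy3 were not measured, dyes were not swapped, and 3 arrays per group limit every test.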
